A study of Homo sapiens with 12 samples.

Results

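The cytosolic ribosomal protein (RP) genes were examined in 2 head and neck squamous cell carcinoma lines after induction of a MUC1 shRNA. They were taken by symbol as the rows named RPL or RPS with a number and any A, X or L ending, together with RPLP0, RPLP1, RPLP2 and RPSA, without pseudogenes and without RPS4Y genes. This gave 85 genes of the 39368 listed, 53 of the large and 32 of the small subunit, with no expression value used to choose them. CAL27 and HSC3 are HPV-negative lines, grown in DMEM and in MEM, respectively, each with FBS. All 12 libraries came from cells carrying tet-MUC1shRNA, a lentiviral vector that expresses a hairpin against MUC1 when doxycycline (DOX) is added. CAL27_vehicle and HSC3_vehicle received 0.1% DMSO and CAL27_DOX and HSC3_DOX received 500 ng/mL DOX, all for 7 days, with 3 libraries a group from triplicate cultures. A DOX-treated tet-CshRNA control was not analysed here, so the effects of the MUC1 hairpin and of DOX itself cannot be told apart. Levels are given as CPM, counts relative to the TMM-scaled total of the library. MUC1, the targeted gene, spanned 58.9 to 63.9 CPM in CAL27_vehicle and 3.06 to 3.58 in CAL27_DOX libraries. In HSC3_vehicle it spanned 1.499 to 1.784 CPM and in HSC3_DOX 0.120 to 0.279, so it was lower in every DOX library of both lines.

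Each cytosolic ribosome holds 1 copy of nearly every RP, arranged on the ribosomal RNA of a small subunit that reads the mRNA and a large subunit that joins amino acids. RP genes are transcribed at high levels from single-copy genes that lie among many processed pseudogenes, and their mRNAs usually start with a C followed by a run of pyrimidines, the 5' terminal oligopyrimidine (TOP) motif through which mTORC1 and LARP1 control their translation and stability. A few members have paralogs that are restricted to certain tissues or take part in ribosome assembly.

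The start of the transcript is the sequence feature that most RP genes share, so it is shown for 8 members that recur below. RefSeq (GRCh38.p14) start entries were given for 68 of the 85 genes, with 84 starts in all. Each line shows 10 bases before the annotated start and 20 bases from it, 5' to 3' on the strand of the gene, and capitals mark the unbroken run of C and T that begins at the start.
RPS18: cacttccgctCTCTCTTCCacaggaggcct
RPL13A: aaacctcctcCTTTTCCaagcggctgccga
RPL39: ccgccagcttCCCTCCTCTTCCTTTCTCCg
RPS23: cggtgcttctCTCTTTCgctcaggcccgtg
RPL22: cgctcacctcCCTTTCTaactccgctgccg
RPL22L1: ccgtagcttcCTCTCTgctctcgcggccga
RPL3: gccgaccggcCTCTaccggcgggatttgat
RPL7L1: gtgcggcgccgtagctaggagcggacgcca
These windows lie at chr6:33272065-33272094 (RPS18, plus strand), chr19:49487598-49487627 (RPL13A, plus strand), chrX:119791611-119791640 (RPL39, minus strand), chr5:82278335-82278364 (RPS23, minus strand), chr1:6199576-6199605 (RPL22, minus strand), chr3:170870176-170870205 (RPL22L1, minus strand), chr22:39319604-39319633 (RPL3, minus strand) and chr6:42879606-42879635 (RPL7L1, plus strand). RPL39 had the longest run of the 8, 19 bases. The paralog RPL22L1 kept a run of 6 bases, as against 7 in RPL22, while RPL7L1 had none. A C followed by at least 4 further pyrimidines stood at 47 of the 84 RP gene starts (56.0%) and at 4.07% of all 35116 starts in the same table. The letters CCGGAAG, an ETS factor motif, were found on either strand within 250 bases before and 50 after the start at 33.3% of the RP gene starts and 10.3% of all starts.

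Library totals were 92866845 to 126328662 counts in CAL27 cells and 89730914 to 169065103 in HSC3 cells. A pair of DOX libraries stood apart in the RP genes. The median log2 difference of the RP genes from the vehicle mean of their line was -0.27 in CAL27_DOX library 6, against -0.052 and -0.078 in libraries 4 and 5, and -0.21 in HSC3_DOX library 1, against 0.064 and -0.048 in libraries 2 and 3. HSC3_DOX library 1 also had 17.3 counts for each original molecule, as estimated from how often genes with expected counts of 8 to 16 had none. HSC3_DOX libraries 2 and 3 had 8.98 and 11.3, the HSC3_vehicle libraries 4.19 to 7.45 and the CAL27 libraries 2.42 to 3.38. Every HSC3_DOX library thus lay above every HSC3_vehicle library, with or without library 1, so this difference cannot be told apart from DOX. The part of these differences between libraries in the results was not tested, and results that rest on either library are given without it as well. The squamous markers KRT5, KRT14 and TP63 were present in both lines (KRT5 at 4076 ± 60.3 CPM in CAL27_vehicle and 2627 ± 150.4 in HSC3_vehicle, SD, n = 3), and 6 of 9 squamous markers fell and 1 rose with DOX in each line. Their summed level went from 7310 to 3643 CPM in CAL27 and from 6131 to 3130 in HSC3 cells, and its part in the RP results was not tested. The summed level of 6 fibroblast, 5 leukocyte and 4 endothelial markers was 16.7 CPM or less for each list in every group, most of it COL1A1, CD14 and, in CAL27 cells, CDH5. COL3A1 had no count in any library, and PTPRC had a mean of 0.0525 CPM or less in every group.

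With vehicle, RP genes spanned a wide range of levels. Levels are compared between genes as CPM per kilobase of the median coding transcript, scaled within each line. In CAL27_vehicle the 5 highest were RPL12 (1898 ± 32.1), RPS2 (1785 ± 40.6), RPS18 (1638 ± 50.7), RPL10 (1484 ± 66.5) and RPL19 (1364 ± 12.1, SD, n = 3). In HSC3_vehicle they were RPL10 (2138 ± 108), RPS6 (1841 ± 40.1), RPL19 (1385 ± 24.5), RPL7A (1336 ± 48.8) and RPL39 (1311 ± 61.7). Within the CAL27 order each of the first 4 lay more than 1 SD above the next, whereas in HSC3 cells RPL7A and RPL39 did not differ beyond their spread. Levels of at least 100 CPM per kilobase were reached by 68 of 85 genes in CAL27_vehicle and 67 in HSC3_vehicle, with medians of 519 and 449, and the order over the 85 genes was alike in the lines (Spearman rho of 0.88 across genes, which share libraries and transcript lengths).

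The lowest levels belonged to genes that are hard to count or restricted to other tissues. RPL10L, a testis paralog of RPL10, had at most 4 counts in CAL27_vehicle and none in the other groups, and was tested in neither line. RPL3L, the muscle paralog of RPL3, had 54 to 113 counts in CAL27_vehicle. RPS10, RPL17 and RPL36A had 3.36 ± 0.659, 6.85 ± 0.423 and 3.26 ± 0.239 CPM per kilobase in CAL27_vehicle (SD, n = 3). Readthrough genes cover 31.5% of the exon bases of RPS10 on its own strand and 8.40% of those of RPL36A, and a readthrough gene and snoRNAs cover 32.9% of those of RPL17 (GENCODE v44, GRCh38). Those readthrough genes were listed at 0 in all libraries. Of the 85 genes, 27 had over 50% of the 50-base words of their main transcript elsewhere in the genome (100% for RPL21, 98.2% for RPS3A), so their counts depend on how multiply mapped reads were treated, which is not given in the sources used here.

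The first comparison asks whether RP genes changed their share of the transcriptome. In CAL27_vehicle the 85 genes took 3.42%, 3.48% and 3.50% of all counts, and in CAL27_DOX 3.19%, 3.14% and 2.81%. All 3 DOX libraries lay below all 3 vehicle libraries, with a mean difference of -0.42 percentage points (two-sided exact permutation test, p = 0.1, the smallest that 3 against 3 can give, 0.2 after adjustment over 6 tests). Without CAL27_DOX library 6 the difference was -0.30. In HSC3_vehicle the share was 3.23%, 3.29% and 3.17%, and in HSC3_DOX 2.82%, 3.31% and 3.11%. These HSC3 groups overlapped, with a difference of -0.15 (exact permutation p = 0.5, adjusted 0.6) that was -0.015 without HSC3_DOX library 1 and -0.26 without HSC3_DOX library 2. In CAL27 cells the large subunit took 2.14% ± 0.0347 with vehicle and 1.90% ± 0.134 with DOX and the small subunit 1.32% ± 0.00731 and 1.15% ± 0.0734 (SD, n = 3), each without overlap (exact permutation p = 0.1, adjusted 0.2). RP pseudogenes were also lower in every DOX library, at 0.0979% ± 0.00117 and 0.0887% ± 0.00636 in CAL27 and 0.0728% ± 0.00485 and 0.0623% ± 0.00237 in HSC3 cells. Mitochondrially encoded genes took 6.14% ± 0.321 of HSC3_vehicle and 8.65% ± 1.03 of HSC3_DOX counts. The 2 HSC3 groups did not overlap in the share of these genes. With mitochondrially encoded genes left out of the total, the HSC3 difference in RP share kept its sign but was smaller. Their part in its size was not tested.

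**Figure D1:**
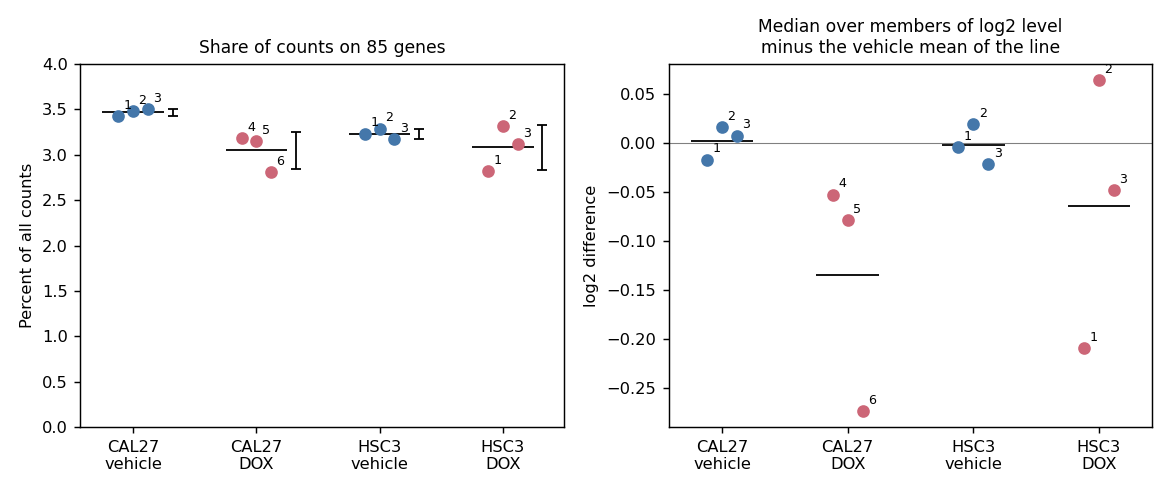
The left panel plots the percent of all counts on the 85 RP genes in each library, with group means as lines and SD bars (n = 3), and the right panel the median log2 difference of the tested RP genes from the vehicle mean of their line. Numbers are library numbers. The CAL27_DOX libraries lie below all CAL27_vehicle libraries, while HSC3_DOX runs from 2.82% to 3.31% around its vehicle group.

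In CAL27 cells RP genes that changed mostly fell, by small amounts. Of 84 tested, 37 were lower and 4 higher with DOX (edgeR quasi-likelihood test, adjusted p under 0.05 over all genes tested), where 21.8% of all 19239 genes tested were lower and 22.6% higher. The median log2 fold change was -0.14, against -0.0052 for all genes, and 72 of 84 genes had a negative sign. Lower calls came from 22 of 52 large and 15 of 32 small subunit genes, and higher calls from large subunit genes only. All 3 DOX libraries lay below all 3 vehicle libraries for 46 RP genes (26.3% of all genes tested) and above them for 6 (26.0% of all genes). None changed more than 2-fold with a call, where 5.11% of all genes were lower and 1.31% higher by that rule. The same counts without CAL27_DOX library 6 were 37 lower and 6 higher, where 22.1% of all genes were lower and 23.7% higher. Of those lower genes 34 were shared, but the median moved to -0.061. In 1 fit of all 12 libraries, 21 were lower and 2 higher, where 11.3% of all genes were lower and 13.3% higher.

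The largest falls in CAL27 cells among called genes were in RPL3L, RPL13A, RPS18, RPL3 and RPL36. RPL13A, a large subunit protein that also joins an interferon-induced complex repressing translation of inflammatory mRNAs, had 693, 684 and 699 CPM with vehicle and 575, 547 and 486 with DOX (log2 fold change -0.37 ± 0.05 SE, adjusted p = 7.84e-06). RPS18, in the head of the small subunit, went from 961, 931 and 904 to 779, 736 and 673 CPM (-0.35 ± 0.05, adjusted p = 5.58e-06). RPL3, which reaches towards the peptidyl transferase centre, went from 695, 722 and 694 to 584, 544 and 544 CPM (-0.34 ± 0.04, adjusted p = 7.88e-07). For these 3 genes every DOX library lay below every vehicle library. RPL36 went from 87.5, 90.9 and 83.7 to 77.7, 73.8 and 60.4 CPM, with no overlap but a wider spread (-0.31 ± 0.09, adjusted p = 0.025, and 0.129 in 1 fit of 12 libraries). HSD11B1L overlaps 17.6% of its exon bases on the same strand. RPL3L had 0.895, 0.553 and 0.782 CPM with vehicle and 0.302, 0.343 and 0.513 with DOX (-0.94 ± 0.28, adjusted p = 0.0106). That is 29 to 113 counts a library, and the call was lost without CAL27_vehicle library 1 (adjusted p = 0.0742) and in 1 fit of 12 libraries (0.0734). The other 32 lower genes had log2 fold changes from -0.11 to -0.31, among them RPSA, a small subunit protein first described as a laminin receptor precursor (-0.31 ± 0.04, adjusted p = 2.54e-06), and RPS6, the substrate of the S6 kinases (-0.20 ± 0.04, adjusted p = 0.000527).

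The 4 genes that rose in CAL27 cells were RPL22L1, RPL7L1, RPL26 and RPL39L, of which 3 are paralogs. RPL22L1, the paralog of RPL22, had 9.87, 10.8 and 9.85 CPM with vehicle and 14.4, 14.6 and 13.8 with DOX (0.49 ± 0.07, adjusted p = 7.64e-06). RPL7L1, a relative of RPL7 that resembles a yeast assembly factor of the large subunit, went from 158, 160.4 and 160.2 to 205, 209.9 and 185 CPM (0.33 ± 0.04, adjusted p = 3.66e-06). RPL39L, a paralog of the exit tunnel protein RPL39 known from testis, went from 19.1, 19.7 and 18.8 to 23.1, 20.7 and 23.3 CPM (0.22 ± 0.06, adjusted p = 0.00524). RPL26, a large subunit protein near the exit of the nascent chain tunnel, went from 14.1, 14.1 and 14.6 to 16.6, 15.8 and 17.5 CPM (0.22 ± 0.06, adjusted p = 0.00737). All 3 DOX libraries lay above all 3 vehicle libraries for each of the 4. In 1 fit of 12 libraries the calls of RPL39L (adjusted p = 0.101) and RPL26 (0.0575) were lost. RPL26 was low for a ribosomal protein, another gene overlaps 14.5% of its exon bases on the same strand, and 53.7% of its words lie elsewhere in the genome.

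**Figure D2:**
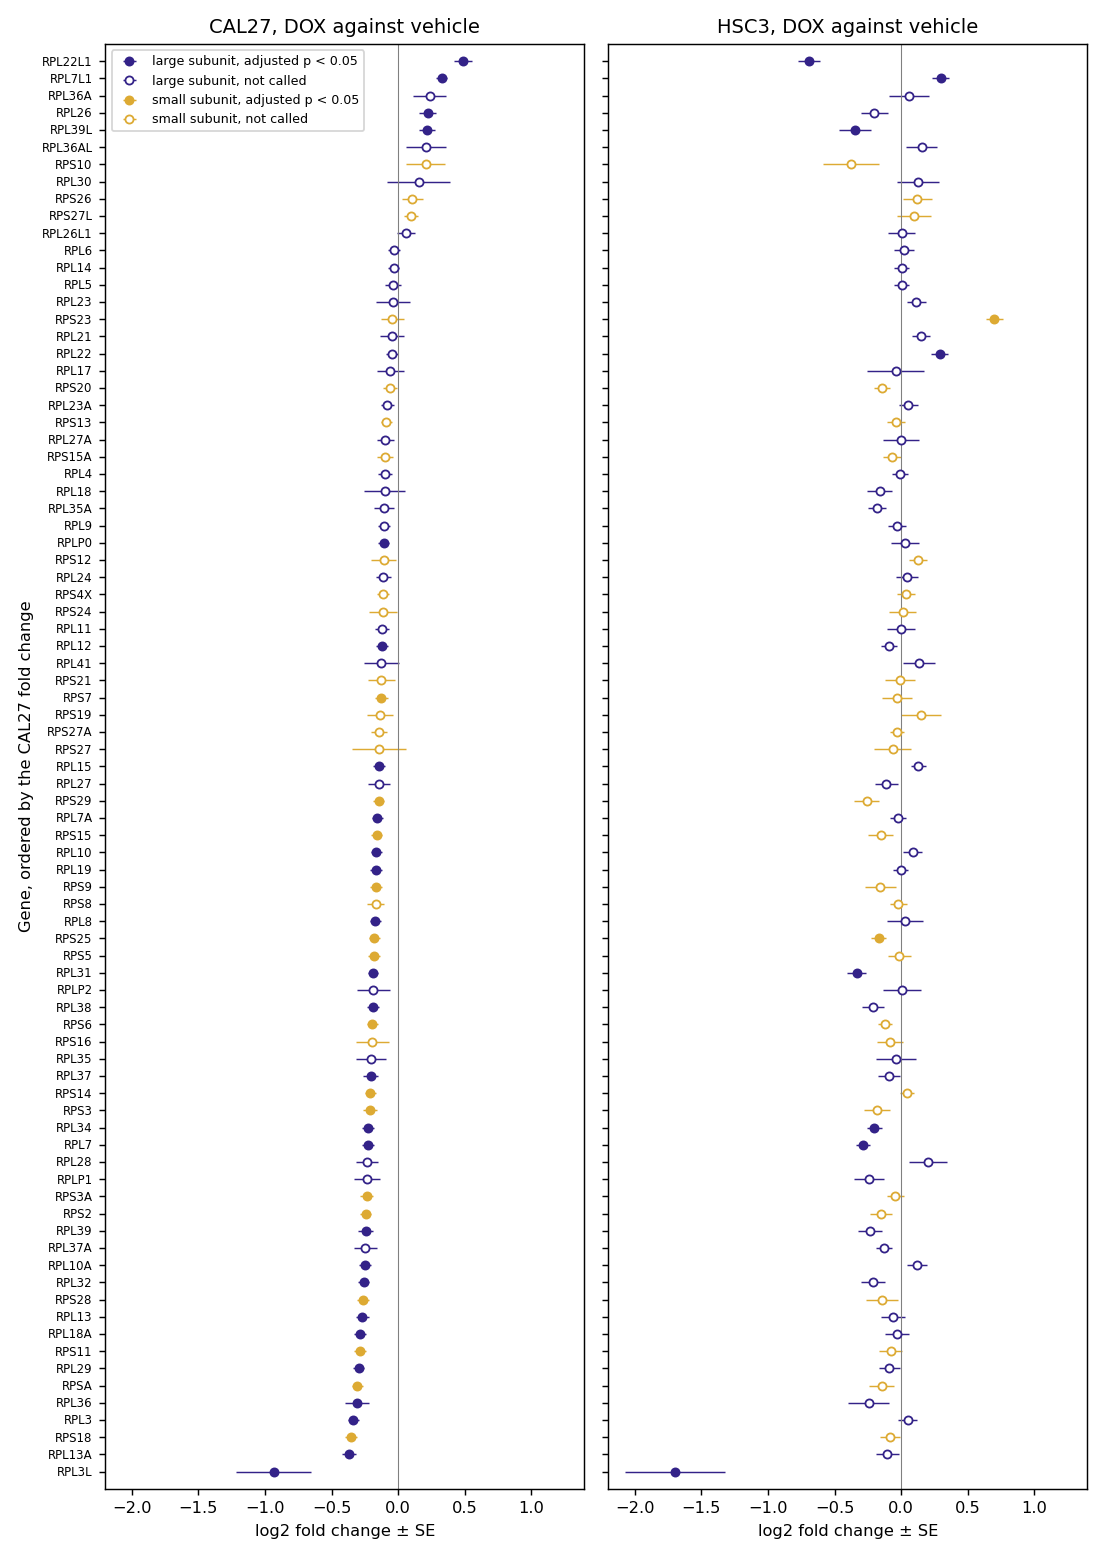
Log2 fold changes of tested RP genes with DOX, ± SE, in CAL27 (left) and HSC3 cells (right), with 83 genes shown in each panel and ordered by the CAL27 value. Filled points have an adjusted p under 0.05 (edgeR). In CAL27 cells 72 genes lie left of 0, with 37 called lower, and in HSC3 cells most lie near 0, apart from RPL3L, RPL22L1 and RPS23.

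Calls in CAL27 cells were more frequent among highly expressed RP genes, as they were among highly expressed genes of all kinds. Of the 42 RP genes with the higher mean levels per kilobase over all CAL27 libraries, 26 were lower and none higher with DOX (median -0.17), and of the other 42, 11 were lower and 4 higher (median -0.11). Among genes with a mean of at least 6 log2 CPM, a level chosen here, 36 of 71 RP genes were lower and 1 was higher. Of the 3643 genes at that level, 24.7% were lower and 44.3% higher, against 21.8% and 22.6% of all genes tested. Members with the pyrimidine start had a median of -0.16 (47 genes) and those with another start -0.12 (20 tested genes) in CAL27 cells. The HSC3 medians were -0.060 and 9.8e-05. The classes rest on the annotated starts, and some genes of the second class, such as RPL10A and RPL19, have a run of C and T a few bases away. These values are descriptions and were not tested.

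In HSC3 cells most RP genes were not called. Of 83 tested, 7 were lower and 3 higher with DOX, where 15.4% of all 18021 genes tested were lower and 13.0% higher (edgeR, adjusted p under 0.05). The median log2 fold change was -0.030, against -0.0097 for all genes, and 52 genes had a negative sign. All 3 DOX libraries lay below all 3 vehicle libraries for 16 RP genes (22.8% of all genes tested) and above for 6 (19.8%). Only RPL3L passed the 2-fold rule as well, where 4.40% of all genes were lower and 1.58% higher. The counts depended on single libraries. Without HSC3_DOX library 1, 11 were lower and 18 higher, and the median was 0.012. Calls over all genes also rose then, to 19.3% lower and 17.5% higher. Without any 1 of the 3 HSC3_vehicle libraries 4 were lower, and without HSC3_DOX library 2 or 3, 8 or 5, with 3 higher each time. In those fits 10.9% to 13.9% of all genes were lower and 8.03% to 10.9% higher.

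RPS23, a small subunit protein at the decoding centre, rose most in HSC3 cells. It had 76.2, 73.9 and 78.2 CPM with vehicle and 128, 122 and 120.4 with DOX (0.70 ± 0.06, adjusted p = 1.27e-05). In CAL27 cells it had 84.9, 87.6 and 92.0 CPM with vehicle and 92.5, 91.3 and 73.1 with DOX, so those groups overlapped. ATG10 lies over 9.21% of its exon bases on the other strand, and the use of strand in counting is not given in the sources used here. RPL22, an RNA-binding protein of the large subunit, went from 76.4, 70.3 and 74.3 to 90.7, 89.1 and 90.4 CPM in HSC3 cells (0.29 ± 0.06, adjusted p = 0.00538). RPL7L1 went from 58.8, 57.9 and 57.3 to 72.8, 70.8 and 70.1 CPM (0.30 ± 0.06, adjusted p = 0.00454). For all 3 genes every DOX library lay above every vehicle library, and each call was kept without HSC3_DOX library 1 (log2 fold changes of 0.67, 0.28 and 0.28).

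The 5 largest falls in HSC3 cells were in RPL3L, RPL22L1, RPL39L, RPL31 and RPL7. RPL22L1 had 23.4, 22.9 and 23.4 CPM with vehicle and 14.5, 14.5 and 14.1 with DOX (-0.69 ± 0.09, adjusted p = 0.000137), a fall of like size in each library. RPL31, near the exit of the nascent chain tunnel, went from 363, 385 and 393 to 329, 277 and 298 CPM (-0.34 ± 0.07, adjusted p = 0.00473). RPL7, an RNA-binding large subunit protein, went from 1011, 1007 and 990.4 to 839, 809 and 816 CPM (-0.29 ± 0.05, adjusted p = 0.00202). The DOX and vehicle libraries of these 3 genes did not overlap. RPL3L had 0.997, 1.48 and 0.933 CPM with vehicle and 0.255, 0.461 and 0.331 with DOX (-1.70 ± 0.38, adjusted p = 0.00609), which is 42 to 68 counts a DOX library at 8.98 to 17.3 counts a molecule, and its adjusted p was 0.0501 without HSC3_vehicle library 2. RPL39L went from 17.4, 14.4 and 17.7 to 11.7, 13.8 and 13.5 CPM (-0.35 ± 0.12, adjusted p = 0.048), with a call that was lost without HSC3_vehicle library 1 or 3 or HSC3_DOX library 2 or 3 (adjusted p up to 0.187). RPL34, a large subunit protein, went from 249, 242 and 249 to 205, 215 and 223 CPM (-0.20 ± 0.06, adjusted p = 0.0238). RPS25, which serves initiation at viral internal entry sites, went from 493, 502 and 485 to 425, 432 and 458 CPM (-0.17 ± 0.06, adjusted p = 0.0449) and lost its call without HSC3_vehicle library 1, 2 or 3 or HSC3_DOX library 2 or 3 (adjusted p up to 0.164).

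RPL3L, RPL7, RPL31, RPL34 and RPS25 were called lower in both lines, 13.5% of the 37 genes lower in CAL27 and 71.4% of the 7 lower in HSC3 cells. Over all genes, those called lower in both lines were 35.2% of the genes lower in CAL27 and 53.2% of those lower in HSC3 cells. RPL7L1 was called higher in both. RPL22L1 and RPL39L were higher in CAL27 and lower in HSC3 cells, and no gene went the other way.

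The next comparison asks whether the DOX effect differed between the lines, as the interaction of line and DOX in 1 fit of 12 libraries. It uses the same libraries as the comparisons above. Of 84 RP genes tested, 7 had a higher and 3 a lower log2 fold change in HSC3 than in CAL27 cells, where 8.25% of all 20694 genes tested were higher and 12.3% lower (edgeR, adjusted p under 0.05). Only RPL22L1 passed the 2-fold rule as well, where 2.19% of all genes were higher and 3.02% lower. The median difference over RP genes was 0.095, against -0.022 for all genes. It was 0.039 without CAL27_DOX library 6, where that of all genes was -0.0025 and 6.64% of all genes were higher and 9.9% lower. Without HSC3_DOX library 2 the median over RP genes was 0.038 (all genes -0.046), and without HSC3_DOX library 1 it was 0.17 (all genes -0.011). RPL22L1 had the largest difference, -1.18 ± 0.10 (adjusted p = 1.16e-06), and it passed under every alternative tried, with adjusted p-values of up to 1.34e-05. RPL39L differed by -0.56 ± 0.13 (adjusted p = 0.00582) and RPL26 by -0.42 ± 0.11 (adjusted p = 0.0155, and 0.0548 without CAL27_DOX library 6 and 0.0563 without CAL27_vehicle library 2). In the other direction, RPS23 differed by 0.74 ± 0.11 (adjusted p = 0.000149), RPL3 by 0.39 ± 0.08 (0.00372) and RPL10A, a large subunit protein, by 0.37 ± 0.09 (0.00916).

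RPL3 had 889.5, 892 and 869 CPM in HSC3_vehicle and 815, 971 and 958 in HSC3_DOX, which overlap, whereas it fell in CAL27 cells. RPL10A had 370.2, 379 and 370.2 CPM in CAL27_vehicle and 332, 319.6 and 291 in CAL27_DOX, without overlap, and 428, 411 and 396.5 in HSC3_vehicle and 400.2, 479.5 and 462 in HSC3_DOX, with overlap. Both were called in CAL27 cells alone, and the difference between the lines itself passed the test. Without HSC3_DOX library 1 both were also called higher in HSC3 cells (0.12 for RPL3 and 0.19 for RPL10A, adjusted p = 0.0334 and 0.00347). RPL22, RPL15, RPS14 and RPL10 were the other genes with higher values in HSC3 cells, at 0.25 to 0.34. RPL10, which joins the large subunit last and sits near the P site, had an adjusted p of 0.0497 that rose to between 0.059 and 0.106 when CAL27_vehicle library 1 or 2, CAL27_DOX library 5 or 6, HSC3_vehicle library 2 or 3 or HSC3_DOX library 2 or 3 was left out. Without HSC3_DOX library 1, 27 RP genes were higher and 4 lower, where 12.3% of all genes were higher and 15.2% lower. Without that library and CAL27_DOX library 6 together, 21 were higher and 4 lower, where 10.4% of all genes were higher and 15.7% lower. The 7 genes higher in the full comparison were among both the 27 and the 21.

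**Figure D3:**
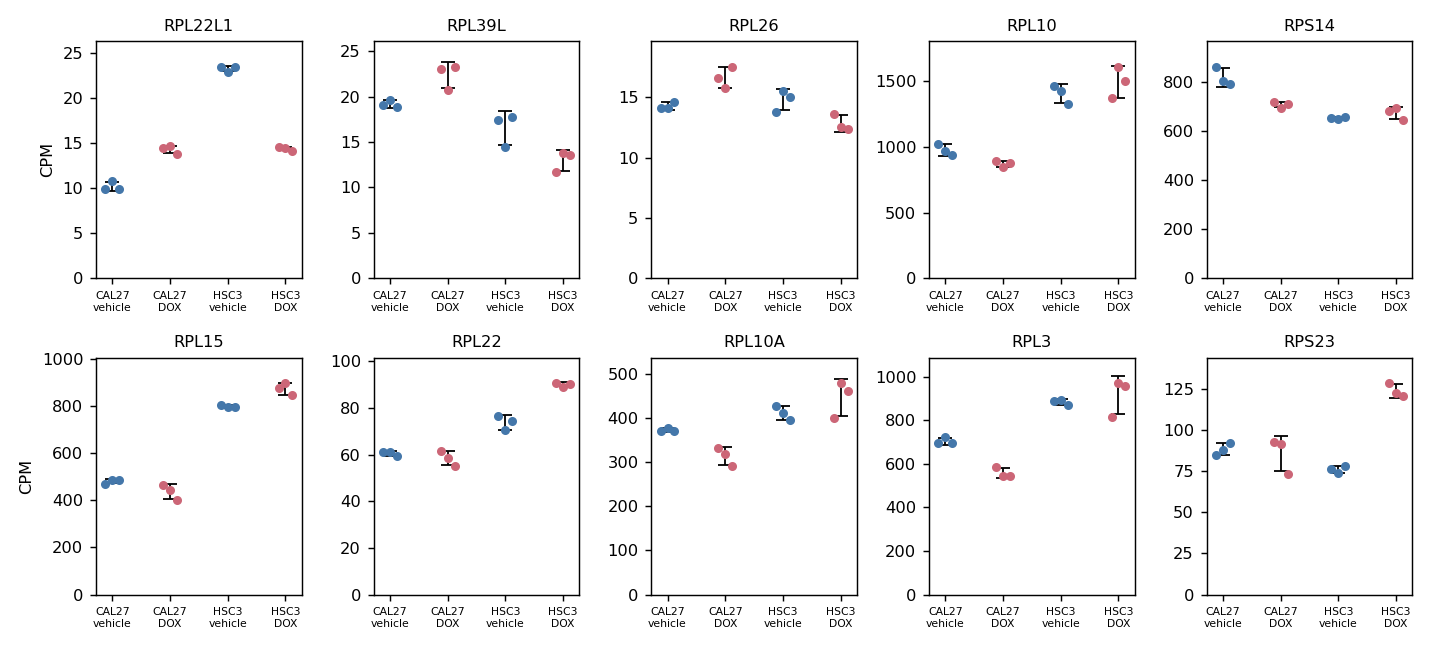
CPM of the 10 RP genes whose DOX effect differed between the lines (edgeR interaction, adjusted p under 0.05), from the lowest to the highest difference. Points are libraries in order of their numbers, bars give mean ± SD (n = 3), axes start at 0 and levels are scaled within each line. RPL22L1 rises in every CAL27_DOX and falls in every HSC3_DOX library.

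With vehicle, HSC3 and CAL27 cells differed in most RP genes. Of 84 tested, 36 were higher and 28 lower in HSC3 cells, where 30.6% of all genes tested were higher and 32.3% lower (edgeR, adjusted p under 0.05). The median difference of all genes in this comparison depended on the scaling, at -0.12 with TMM and -0.39 with library totals, and that of the RP genes was 0.062 and -0.21, above that of all genes under both. Among the 3655 genes with a mean of at least 6 log2 CPM the median with TMM was 0.30, with 57.8% higher and 27.4% lower. The 69 RP genes at that level lay below it, with a median of 0.063 and with 30 higher and 23 lower. On library totals 22 RP genes were higher and 39 lower, where 23.1% of all genes were higher and 41.6% lower. Line and culture medium cannot be told apart here. The 3 largest differences upwards were in RPL22L1 (1.47 ± 0.07, adjusted p = 6.04e-11), RPS3A (1.44 ± 0.07, 3.07e-11) and RPS25 (1.15 ± 0.05, 7.91e-12). The 3 largest downwards were in RPS3, which lines the mRNA entry channel (-1.70 ± 0.09, adjusted p = 1.29e-10), RPL7L1 (-1.19 ± 0.05, 1.89e-11) and RPS26, near the mRNA exit (-1.10 ± 0.10, 1.52e-07). RPS3 had 840.2, 866 and 868 CPM in CAL27_vehicle and 215, 219 and 222 in HSC3_vehicle, a ratio of 3.93 on levels scaled within each line. RPS3A had 217, 202 and 209.8 CPM in CAL27_vehicle and 500.2, 457 and 453 in HSC3_vehicle, with 98.2% of its words elsewhere in the genome. The groups were well apart for both. More than 2-fold differences with a call were found for 7 genes upwards and 6 downwards, against 13.2% and 18.7% of all genes.

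Paralogs were compared with their partners as the log2 ratio of the levels in each library, which does not depend on the scaling of the libraries. With 14 pairs tested over both lines, 3 against 3 libraries gave a smallest exact permutation p of 0.1, 0.233 after adjustment, so none could pass. RPL22L1 stood at -2.63, -2.50 and -2.59 relative to RPL22 in CAL27_vehicle and at -2.09, -2.01 and -2.00 in CAL27_DOX, so its level went from 16.8% to 24.4% of that of RPL22. In HSC3 cells it went from -1.70, -1.62 and -1.67 to -2.64, -2.62 and -2.68, or from 31.6% to 15.97%. The groups were separate in both lines, in opposite directions. RPL7L1 relative to RPL7 went from -2.13, -2.11 and -2.14 to -1.60, -1.56 and -1.56 in CAL27 cells. In HSC3 cells it went from -4.10, -4.12 and -4.11 to -3.53, -3.51 and -3.54. Those mean differences of 0.56 and 0.58 were the only ones that had the same direction and no overlap in both lines.

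RPL39L relative to RPL39 differed by 0.47 without overlap in CAL27 cells, at 5.85% of the RPL39 level with vehicle and 8.12% with DOX, and by -0.10 with overlap in HSC3 cells. RPL3L relative to RPL3 differed by -0.62 with overlap in CAL27 cells and by -1.76 without overlap in HSC3 cells, at no more than 0.128% of RPL3 in any group mean. RPL26L1, RPL36AL and RPS27L, a paralog of RPS27, overlapped between groups in their ratios in both lines. RPL26L1 was at 146% of RPL26 in CAL27_vehicle and RPL36AL at 1781% of RPL36A, beside the counting limits of RPL26 and RPL36A given above. By themselves, RPL26L1, RPL36A, RPL36AL, RPS27 and RPS27L were called in neither line (log2 fold changes of 0.061, 0.24, 0.21, -0.14 and 0.098 in CAL27 cells, and of 0.0037, 0.062, 0.15, -0.065 and 0.097 in HSC3 cells). Without CAL27_DOX library 6, RPL36AL was called higher in CAL27 cells (0.35, adjusted p = 0.000126).

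**Figure D4:**
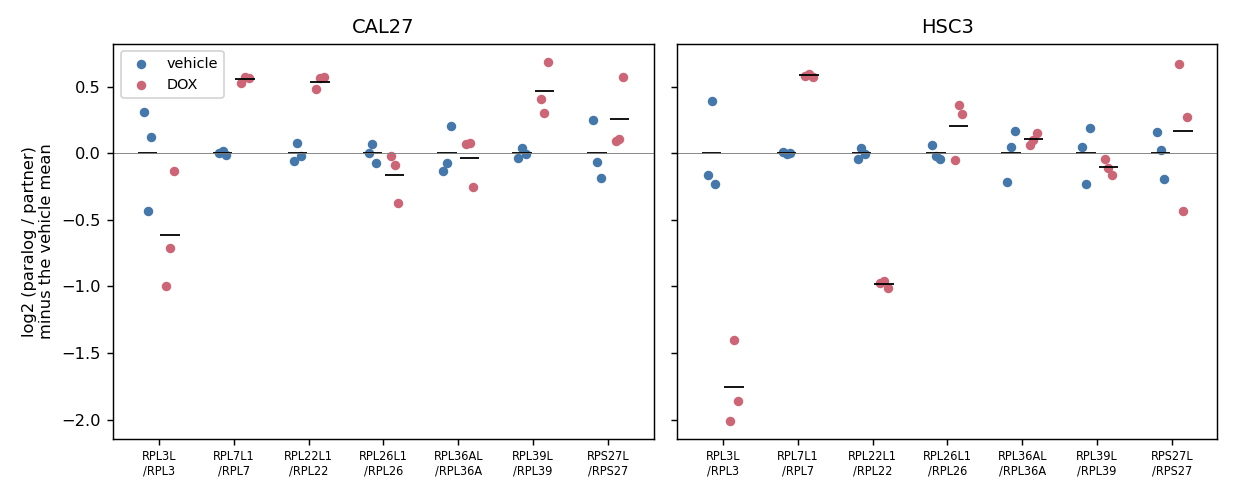
Log2 ratio of each paralog to its partner in single libraries, minus the vehicle mean of the pair, with vehicle and DOX libraries side by side and group means as lines, in CAL27 (left) and HSC3 cells (right). RPL7L1 over RPL7 moves up in both lines, and RPL22L1 over RPL22 moves up in CAL27 and down in HSC3 cells.

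Among members with named roles, the stalk proteins RPLP0, RPLP1 and RPLP2, which recruit elongation factors, had few calls. RPLP0 had 709, 748 and 719 CPM in CAL27_vehicle and 704, 682 and 633 in CAL27_DOX (-0.11 ± 0.04, adjusted p = 0.0473). That call was lost without CAL27_vehicle library 2 or 3 or CAL27_DOX library 5 or 6 (adjusted p up to 0.156) and in 1 fit of 12 libraries (0.499). RPLP1 and RPLP2 were not called in CAL27 cells (-0.24 ± 0.10, adjusted p = 0.101, and -0.19 ± 0.12, adjusted p = 0.3), nor was any of the 3 in HSC3 cells. Without CAL27_DOX library 4 or 6, RPLP1 was called lower in CAL27 cells (-0.31 and -0.13, adjusted p = 0.0263 and 0.00464). Without HSC3_DOX library 1, RPLP0 and RPLP2 were called higher in HSC3 cells (0.16 and 0.18, adjusted p = 0.0122 and 0.0422). RPL5 and RPL11, which with 5S ribosomal RNA bind MDM2 when assembly is disturbed, were not called in either line. RPL5 had 539.8, 557 and 571 CPM in CAL27_vehicle, 580.3, 566 and 478 in CAL27_DOX, 718, 764 and 779 in HSC3_vehicle and 759.8, 759 and 747 in HSC3_DOX. RPL11 had a log2 fold change of -0.12 ± 0.06 in CAL27 cells (adjusted p = 0.0954, and 0.0497 without CAL27_vehicle library 1 and 0.027 without CAL27_DOX library 4) and of 0.00073 ± 0.11 in HSC3 cells (0.997, and 0.0317 at 0.13 without HSC3_DOX library 1). RPS6 had 1258, 1212 and 1200.4 CPM in CAL27_vehicle and 1114, 1051 and 1041 in CAL27_DOX, and 2023, 2114 and 2068 in HSC3_vehicle and 1911, 1897 and 1891 in HSC3_DOX. Both pairs of groups were separate, and RPS6 was called in CAL27 cells only (HSC3 log2 fold change -0.12 ± 0.05, adjusted p = 0.118, and 0.0301 without HSC3_DOX library 1 and 0.0443 on library totals), with an interaction of 0.074 ± 0.066 (adjusted p = 0.51).

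RACK1 and FAU are proteins of the mature ribosome with other symbols. FAU, which encodes a ribosomal protein fused to a ubiquitin-like protein, had a log2 fold change of -0.030 ± 0.05 (adjusted p = 0.64) in CAL27 cells. RACK1, a signalling scaffold on the small subunit, fell in CAL27 cells (-0.24 ± 0.04, adjusted p = 9.96e-05). Neither was called in HSC3 cells (0.099 and -0.13). RACK1 had 1229 ± 48.4 CPM in CAL27_vehicle and 1043 ± 35.7 in CAL27_DOX (SD, n = 3).

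The other genes of the translation and ribosome pathway were counted in the same way. In CAL27 cells 22.6% of all genes tested were higher and 21.8% lower. Of genes with a mean of at least 6 log2 CPM, 44.3% were higher and 24.7% lower. In CAL27 cells, of 88 nucleolar assembly factors, snoRNP proteins and RNA polymerase I genes, 73 were higher and 2 lower (median 0.32), where RP genes had 4 and 37 of 84. NOP56, a box C/D snoRNP protein, rose from 124 ± 2.60 to 176 ± 5.32 CPM, and NCL, nucleolin, from 878 ± 5.76 to 1140.2 ± 39.6 CPM (SD, n = 3). NOP2, an rRNA methyltransferase, had the largest rise of the list (0.86 ± 0.33, adjusted p = 0.0385) at 0.633 CPM or less in any library, and the RNA helicase DDX52 the largest fall (-0.19 ± 0.04, adjusted p = 0.00156). Initiation factors had 15 higher and 6 lower of 32 (median 0.083), with EIF6, which keeps the subunits apart, highest (0.48 ± 0.05, adjusted p = 4.14e-08) and EIF4EBP2, an eIF4E binding repressor, lowest (-0.33 ± 0.04, adjusted p = 3.9e-06). The elongation list, which also holds related genes such as EEF1E1 and EEF2K, had 1 higher and 4 lower of 9 tested (median -0.14). EEF1E1 was higher (0.25 ± 0.06, adjusted p = 0.00335). EEF1A1, which brings aminoacyl-tRNA to the ribosome, was lowest (-0.27 ± 0.05, adjusted p = 0.000168). EEF1G was listed at 0 in all 12 libraries. Hosts of snoRNAs had 8 higher and 2 lower of 15, from DANCR (0.60 ± 0.07, adjusted p = 7.15e-07) to EPB41L4A-AS1 (-0.34 ± 0.09, adjusted p = 0.00358).

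In HSC3 cells the same lists were closer to 0. Of all genes tested there, 13.0% were higher and 15.4% lower, and of those with a mean of at least 6 log2 CPM 23.4% and 24.8%. Assembly factors had 28 higher and 5 lower of 88 (median 0.16). Without HSC3_DOX library 1, 47 were higher, where 17.5% of all genes were. Without HSC3_vehicle library 1, 2 or 3 or HSC3_DOX library 3, 16 to 18 were higher, where 8.03% to 9.3% of all genes were. RIOK2, a kinase of late small subunit maturation, rose most (0.86 ± 0.09, adjusted p = 3.93e-05) and DDX52 fell most (-0.53 ± 0.08, adjusted p = 0.00048). Initiation factors had 6 higher and 4 lower of 32 (median 0.014), from EIF4A2 (0.41 ± 0.07, adjusted p = 0.00116) to EIF3C (-0.28 ± 0.09, adjusted p = 0.0458). Of 9 genes of the elongation list tested, only EEF2K was called (-0.40 ± 0.12, adjusted p = 0.0302). It is a kinase that inhibits EEF2 and not itself an elongation factor. SnoRNA hosts had 2 higher and 2 lower of 15, from DANCR (0.51 ± 0.09, adjusted p = 0.00123) to SNHG1 (-0.28 ± 0.06, adjusted p = 0.00666). In the interaction, 22 of 88 assembly factors were lower and 3 higher in HSC3 than in CAL27 cells, against the 3 lower and 7 higher RP genes. Of all genes, 12.3% were lower and 8.25% higher, and of those with a mean of at least 6 log2 CPM 26.6% and 12.8%, near the 25% of assembly factors that were lower. Of RP pseudogenes, 25 were lower and 6 higher of 414 tested in CAL27 and 12 lower and 2 higher of 364 in HSC3 cells, with medians of -0.10 and -0.17.

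**Figure D5:**
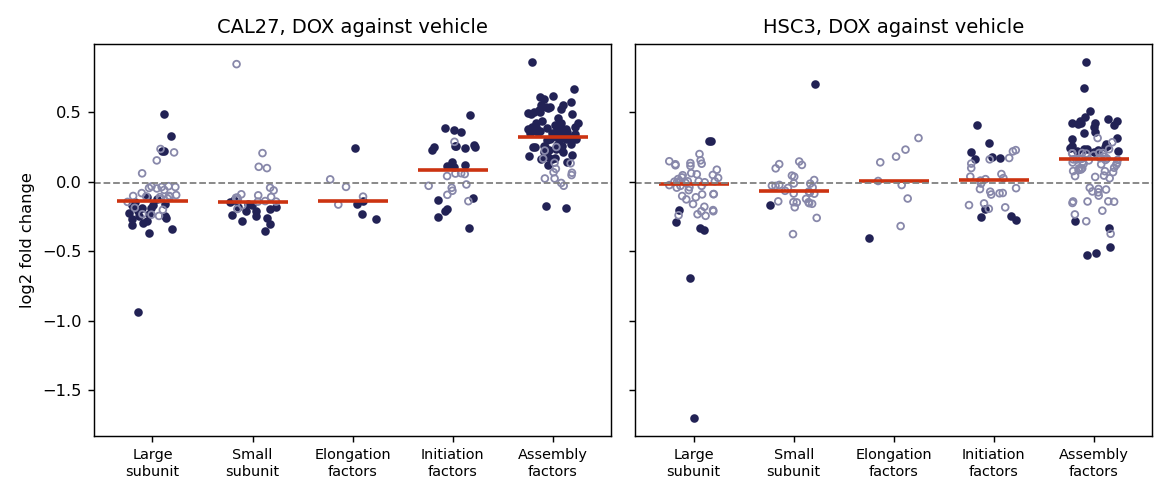
Log2 fold changes with DOX of the tested large and small subunit genes, elongation factors with related genes, initiation factors and ribosome assembly factors in CAL27 (left) and HSC3 cells (right), 1 point a gene. Filled points have an adjusted p under 0.05 (edgeR), red lines are list medians and the dashed line is the median of all genes tested. In CAL27 cells the medians are -0.13 and -0.14 for the subunits and 0.32 for assembly factors.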

How the data were processed

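RNA-seq was performed on 12 libraries with the TruSeq Stranded mRNA kit. The authors deposited raw counts per gene symbol, 1 table a line. The submitters' processing notes name FastQC 0.11.9, STAR 2.7.9a, Subread 2.0.1 with featureCounts, and GRCh38. The annotation, use of strand and treatment of duplicated or multiply mapped reads are not given in the sources used here, and each can shift counts of genes with pseudogenes. The CAL27_DOX columns are numbered 4 to 6 and their samples 1 to 3, so they were used by group and are called by column number.

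Each line was fitted alone in R 4.3.3 with edgeR 4.0.16 (TMM, genes kept by filterByExpr at min.count 10 and min.total.count 15, robust glmQLFit, glmQLFTest, Benjamini-Hochberg over all genes tested, threshold 0.05). The interaction and the vehicle comparison came from 1 fit of 12 libraries. CPM used TMM library sizes within each line. P-values measure the spread between triplicate cultures of 1 transduced line. Scripts were tested on simulated data with 200 genes changed by 1.5 log2 units, more than nearly all RP genes changed. Of these genes 92.5% were recovered in CAL27, 73% in HSC3 and 58% in the interaction. Recovery of smaller changes was not tested. Of the 12 replicate pairs, none agreed within sampling noise (chi-square per degree of freedom 7.27 to 132). DESeq2 1.42.0, other scalings, filters and left-out libraries were alternatives. Positions and overlaps come from GENCODE v44, which matched 38934 of 39368 symbols and all 85 RP genes.

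The genes and lists were chosen with earlier results of these data known. The genes named were the 5 largest rises and falls called in each line, the 3 largest each way called in the interaction and with vehicle, the paralog pairs, stalk genes, RPL5, RPL11, RPS6, the 5 highest and lowest levels and the genes not tested, with the largest call each way of each list. NOP56, NCL, RPSA, RPL15 and RPS14 were named after their values were seen. Results of a few genes on these lists are not reported here.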

Additional observations from a re-analysis of the deposited data

Results flagged for a closer look

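The DOX effect on 10 RP genes differed between the lines by the interaction test (edgeR, adjusted p under 0.05 over 20694 genes). Of 84 tested, 8.33% were higher and 3.57% lower, where 8.25% of all genes were higher and 12.3% lower. As log2 fold change in HSC3 minus that in CAL27 cells, the values were 0.74 for RPS23, 0.39 for RPL3, 0.37 for RPL10A, 0.34 for RPL22, 0.28 for RPL15, 0.26 for RPS14, 0.25 for RPL10, -0.42 for RPL26, -0.56 for RPL39L and -1.18 for RPL22L1. RPL22L1 and RPL39L were called in opposite directions in the 2 lines, and each of the other 8 was called in 1 line alone with all libraries. Without HSC3_DOX library 1, RPL3, RPL10A, RPL15 and RPL10, which were lower in CAL27 cells, were called higher in HSC3 cells (0.12, 0.19, 0.13 and 0.15, adjusted p = 0.0334, 0.00347, 0.0347 and 0.0302). With 3 libraries a group, single libraries were not tested as outliers.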

How the results depend on the processing

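Without each library in turn, CAL27 RP genes had 4 to 6 higher and 34 to 49 lower (median -0.20 to -0.0613), HSC3 RP genes 3 to 18 and 4 to 11 (-0.0983 to 0.0125), the interaction 6 to 27 and 2 to 4 (0.0385 to 0.17) and the vehicle comparison 33 to 38 and 26 to 33 (0.0319 to 0.0801). Over all genes the higher shares in these fits were 17.8% to 23.7% in CAL27, 8.03% to 17.5% in HSC3, 6.21% to 12.3% in the interaction and 27.3% to 31.5% with vehicle. The lower shares were 19% to 22.1%, 10.9% to 19.3%, 9.06% to 15.2% and 28.8% to 35.5%. Differences in RP share of counts were -0.49 to -0.30 in CAL27 and -0.26 to -0.0146 in HSC3 cells. With a 2-fold limit as well, 0 RP genes were higher and 0 lower in CAL27, 0 and 1 in HSC3, 0 and 1 in the interaction and 7 and 6 with vehicle. In either line 0 assembly or mitochondrial ribosomal genes passed it. In 1 fit of 12 libraries CAL27 RP genes had 2 higher and 21 lower, against 13.3% and 11.3% of all genes. Without both low DOX libraries, an alternative chosen after seeing the data, the interaction had 21 higher, against 10.4% of all genes. With vehicle, the median was 0.0170 with DESeq2 size factors, 0.0157 with DESeq2, 0.0192 on counts per molecule and -0.21 with 22 higher on library totals. The cause was not tested.

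The other 2 lists were also recounted after seeing the data. Assembly factors had 68 to 78 higher and 1 to 2 lower in CAL27 and 16 to 47 and 5 to 8 in HSC3 cells with libraries left out, 1 lower in CAL27 with DESeq2 and in 1 fit of 12 libraries, and 8 lower in HSC3 cells in that fit. Mitochondrial ribosomal genes had 32 to 50 and 3 to 4 in CAL27 and 5 to 33 and 4 to 7 in HSC3 cells. In CAL27 cells 5 were lower on library totals and 5 on counts per molecule, and 23 were higher and 1 lower in 1 fit of 12 libraries.

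Signs turned for genes that had no call in the comparison concerned, apart from RPL26L1 with vehicle (0.23, adjusted p = 0.0293). On library totals HSC3 values were -0.0204 for RPL26L1, -0.0178 for RPLP2, -0.0219 for RPL5 and -0.0223 for RPL11, and the vehicle difference of RPL26L1 was -0.0361. RPL11 was -0.00184 with TMM without RP genes and pseudogenes and -0.000615 with no filter. Left-out libraries gave -0.0171 to 0.13 for RPL26L1 in CAL27, -0.25 to 0.0264 for RPS27 in CAL27, -0.0944 to 0.0481 for RPL5 in CAL27, -0.0566 to 0.0816 for RPL26L1 in HSC3, -0.0298 to 0.0303 for RPL5 in HSC3, -0.0842 to 0.13 for RPL11 in HSC3, -0.14 to 0.18 for RPLP2 in HSC3, -0.27 to 0.0476 for RPS27 in HSC3, -0.0523 to 0.21 for RPS27L in HSC3, -0.0204 to 0.14 for RPL36A in HSC3, -0.0492 to 0.16 for RPLP0 in HSC3, -0.10 to 0.0761 for RPL36AL over RPL36A in CAL27, -0.00316 to 0.19 for RPL36AL over RPL36A in HSC3 and -0.0812 to 0.47 for RPS27L over RPS27 in HSC3.

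The replicate numbers of HSC3 cells were checked as a pairing. Deviations of same-numbered vehicle and DOX libraries correlated at -0.025, 0.046 and -0.0064, and those of differently numbered libraries at -0.052 to 0.045. No pairing was seen, but with so few libraries a group and noise between them this check cannot exclude one. With the replicate block HSC3 RP genes had 3 higher and 6 lower (median -0.0382), 13 mitochondrial ribosomal genes were higher, and RPL26L1 (-0.000959), RPLP2 (-0.0220) and RPL11 (-0.0139) turned sign. No paired analysis was possible in CAL27 cells because the DOX columns carry numbers 4 to 6.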

Other observations

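Regulators known to act on RP genes were counted in the same fits. In CAL27 cells 8 of 15 were higher and 2 lower (edgeR, adjusted p under 0.05). Of all genes 22.6% were higher and 21.8% lower, and of those with at least 6 log2 CPM 44.3% and 24.7%. MYC, which drives transcription of ribosome genes, was highest (0.45 ± 0.05, adjusted p = 2.74e-07) and TSC1, a brake on mTORC1, lowest (-0.49 ± 0.04, adjusted p = 7.32e-09). LARP1, which binds TOP mRNAs, had 696 ± 9.57 CPM with vehicle and 783 ± 11.4 with DOX (SD, n = 3). In HSC3 cells 2 of 15 were higher and none lower, where 13.0% of all genes were higher and 15.4% lower. RPS6KB2 rose most (0.52 ± 0.13, adjusted p = 0.0098), while TSC1 and LARP1 were not called (-0.063 and 0.017).

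Of the ribosomal proteins of mitochondria, 40 were higher and 3 lower of 77 in CAL27 cells and 20 higher and 6 lower of 77 in HSC3 cells, with medians of 0.18 and 0.16. The higher genes are 51.9% and 26% of those tested. Of all genes, 22.6% were higher and 21.8% lower in CAL27 and 13.0% and 15.4% in HSC3 cells. Of genes with at least 6 log2 CPM, 44.3% were higher and 24.7% lower in CAL27 cells (median 0.068). In HSC3 cells 23.4% of genes at that level were higher and 24.8% lower (median 0.0034).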
